A study of Mus musculus with 16 samples.

Results

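Mouse embryonic fibroblasts (MEF) made to over-express Oct4 were compared with MEF over-expressing DR, an insert whose name the labels do not spell out. Each side was 1 RNA library, so the comparison used 2 of the 16 samples of the series and 2 of its 13 RNA libraries, and of 19760 genes shared by all RNA libraries it measured 11245. The fibroblasts were OG2 transgenic cells at passage 2 from a mixed background of 129SVJ, C57B6 and CBA, with a CBA share that the labels write differently for each library. For the Oct4 library only the sample's title names the factor, while the other libraries have a genotype label. The OG2 transgene, which all MEF and KSM groups carry, is known as a green fluorescent reporter driven by Oct4 regulatory sequence. The other MEF libraries used as a reference were untreated MEF (WT) and MEF over-expressing c-Jun, c-JunDN (a dominant-negative c-Jun) or Jdp2, 1 library each. A second setting held Oct4 or DR given together with Klf4, Sox2 and c-Myc (KSM), with RNA taken on day 3, again 1 library each. The number of embryos or cultures behind a library, the time from delivery to harvest in MEF and the promoter of the introduced genes are not given in the sources used here.

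Oct4, encoded by Pou5f1, is a POU-domain transcription factor of the early embryo and of pluripotent stem cells, and it binds an octamer of DNA letters, often beside a Sox2 site. With Klf4, Sox2 and c-Myc it turns fibroblasts into induced pluripotent stem cells. Fibroblasts are mesenchymal cells that make collagen, elastic fibres and proteoglycans, and the loss of this programme is an early step of reprogramming. The design text gives the purpose of the over-expression libraries as learning how the single factors act on gene expression in fibroblasts.

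The values below are CPM, counts brought to a common library size, and a change is log2 of (CPM + 1) with Oct4 over (CPM + 1) with DR. Genes reaching 5 CPM on either side count as measured, and those that changed 2-fold or more are called higher or lower. A gene that reaches 5 CPM on 1 side only can be called in that direction alone, which also shifts list medians. With 1 library a side there is no replicate check and no test, and the 95% intervals given for ratios cover counting error only. In whole cultures, fewer cells of a type and less RNA per cell cannot be told apart. The Oct4 library held 1839750 expected counts on shared genes and the DR library 1971254, so that 3 counts correspond to 1.60 and 1.55 CPM. The Oct4 library was quantified on Ensembl genes and the other 12 RNA libraries on RefSeq-based names. Annotation and factor therefore cannot be told apart for a gene whose model differs. Of 14245 genes with an implied length in both annotations 17.3% differed by more than 1.5-fold and 7.7% by more than 2-fold. For genes beyond 2-fold that are named below, the change on the length-corrected TPM scale is also given.

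Pou5f1 was at 10360 CPM in the Oct4 library and at 2.58 CPM with DR. It lay between 0.0651 and 1.61 CPM in the other 4 MEF libraries. The ratio to DR was 4024-fold (95% interval 1724 to 12390), resting on 5 counts with DR, and on this gene the library matches its title. In KSM it was at 1856 CPM with Oct4 and 4.41 CPM with DR. WT embryonic stem cells held 1107 CPM, below both Oct4 libraries. The other introduced factors were not called: Klf4 stood at 73.9 CPM with Oct4 and 128 with DR, Myc at 25.5 and 31.9, Jun at 85.6 and 94.3, and Jdp2 at 42.0 and 81.9. Sox2, the usual partner of Oct4, was at 1.60 CPM with Oct4 and 3.61 with DR and was too low to be measured.

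Across the measured genes 1300 were higher with Oct4 than with DR, which is 11.6%, and 1150 were lower, which is 10.2%. The counts of each list below are to be read beside these shares. The median change of all measured genes was 0.01. For 1245 of the higher and 1105 of the lower genes the counting interval of the ratio left out no change. The change was 8-fold or more for 213 higher and 163 lower genes. DR itself was at least 2-fold higher than WT MEF at 9.49% of 10892 genes and lower at 10.6%, 20.1% in all, so the named genes are also set against all 5 other MEF libraries. Over 10928 genes measured against both DR and WT, 829 (7.59%) were higher and 644 (5.89%) lower with Oct4 than in both. Of 11875 genes that reached 5 CPM in any MEF library, 510 (4.29%) were at least 2-fold higher with Oct4 than in each of the 5 others, and 318 (2.68%) at least 2-fold lower.

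**Figure D1:**
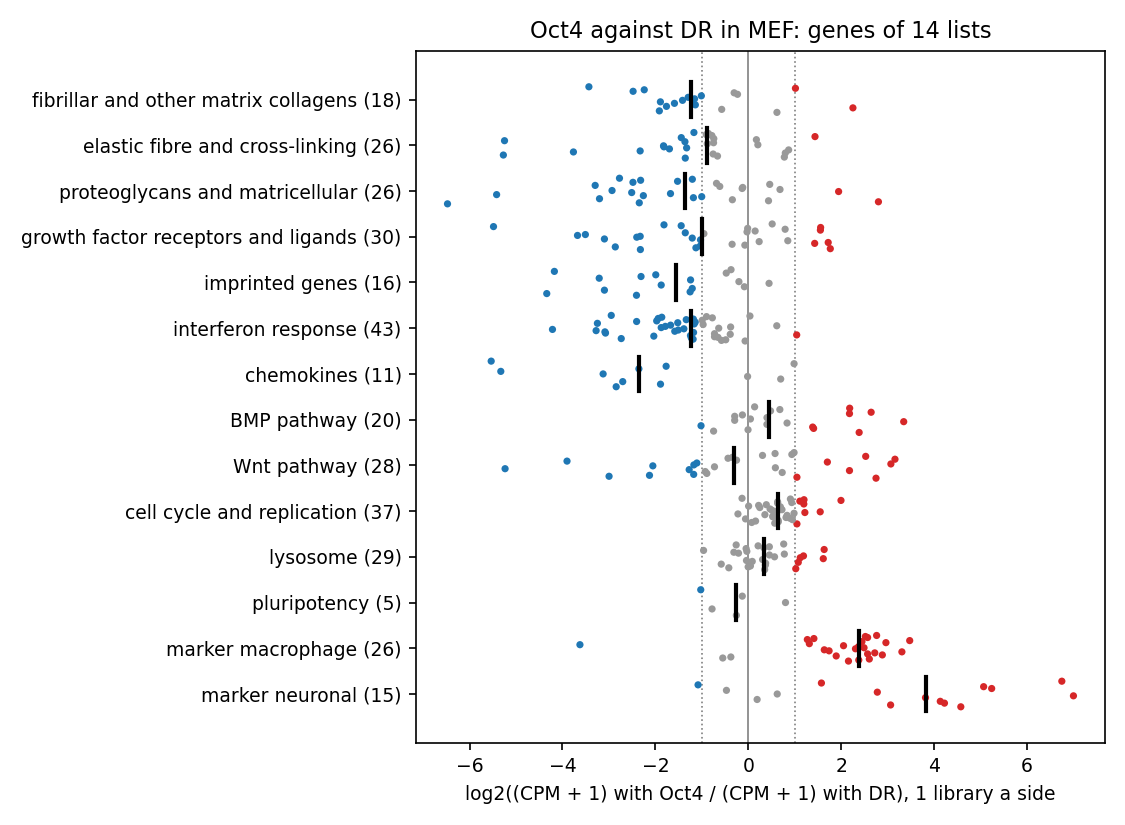
Genes of 14 lists, with the log2 change of Oct4 against DR in MEF on the x axis and the list on the y axis, the number of measured genes in parentheses. Each point is a gene, red at 2-fold or more higher, blue at 2-fold or more lower and grey otherwise, and the black bar is the median, which runs from -2.36 for chemokines to 3.81 for neuronal markers.

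Genes of the stem cell programme were mostly at or near 0 counts in these fibroblasts. Of 37 pluripotency genes other than Oct4, 5 were measured, 0 were higher and 1 was lower, with a median change of -0.26. The measured ones were Klf4, Klf2, Klf5, Tbx3 and Tet1, genes that fibroblasts also express. Tet1, which oxidises methylated cytosine, was the lower one at -1.02, but its implied length differed between the annotations and its change on the TPM scale was 0.08. Among 17 members at 0 counts in the Oct4 library were Zfp42 and Sall4, transcription factors of pluripotent cells. Of 12 textbook Oct4 target genes of ESC, 2 were measured and neither was called: Spp1, the gene of osteopontin, changed by -0.61, and Lefty1, a Nodal antagonist, was at 5.32 CPM against 3.09.

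In KSM 13 pluripotency genes were measured, 7 were higher with Oct4 than with DR and 1 was lower, beside 4.77% higher and 6.83% lower of 10639 genes measured in that setting. L1td1, an RNA-binding protein of pluripotent cells, was at 95.5 CPM with Oct4 and 0.401 with DR in KSM, while the MEF Oct4 library held 0.532 CPM. Tcfcp2l1, a transcription factor of naive stem cells, was at 52.3 CPM against 2.41 in KSM and at 1.60 CPM in MEF with Oct4. Nr0b1, Tdh, Sall4 and Zfp42 were also higher in KSM, each at 19.3 CPM or less with Oct4. Whether the difference between settings exceeds the spread of replicates was not tested.

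Many extracellular matrix genes were lower with Oct4. Of 18 measured collagens 12 were lower and 2 higher (median -1.23), of 26 genes of elastic fibres and cross-linking 12 were lower and 1 higher (median -0.89), and of 26 proteoglycan and matricellular genes 16 were lower and 2 higher (median -1.36). The summed level of the collagens was 18980 CPM with Oct4, 48560 with DR, 87440 in WT, 20160 with c-Jun, 49230 with c-JunDN and 48390 with Jdp2. It was lowest with Oct4 and next lowest with c-Jun.

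Col6a1, a chain of the beaded-filament collagen VI, was at 286.7 CPM with Oct4 and 1605 with DR, and between 653 and 1529 CPM in the other 4 MEF libraries. It was 5.60-fold lower than with DR (95% interval 5.11 to 6.14) and below every other MEF library. Col6a2, its partner chain, was at 219.7 CPM against 1042 with DR, and the other libraries held 497 to 905 CPM. Col1a2, a chain of type I collagen, was at 3026 CPM with Oct4, 11240 with DR, 21280 in WT, 4592 with c-Jun, 12190 with c-JunDN and 8568 with Jdp2. Here too the Oct4 library was the lowest and the c-Jun library the next. Col8a2, a short-chain collagen, had 0 counts with Oct4 and also with c-Jun, and was at least 6.13-fold lower than the 9.79 CPM with DR, measured against the floor of 3 counts. Col15a1, a basement membrane collagen, went the other way, at 35.6 CPM with Oct4 and 6.70 with DR, though WT MEF held 26.2 CPM.

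Among elastic fibre genes, Eln, the gene of elastin, was at 0.532 CPM with Oct4, 58.2 with DR, 460 in WT, 5.38 with c-Jun, 904 with c-JunDN and 6383 with Jdp2. The Oct4 value is 1 count, and the ratio to DR was 109-fold lower with an interval of 19.3 to 4360. Elastin varied widely among the 5 other libraries, and each of them was higher than Oct4. Mfap4, a microfibril-associated protein, was at 5.85 CPM with Oct4, 259 with DR, 110 in WT, 29.6 with c-Jun, 483 with c-JunDN and 754 with Jdp2. Fbln1, a fibulin of elastic fibres and basement membranes, was at 26.6 CPM against 374 with DR and 59.4 to 279 in the others. Fbln2 was 5.03-fold lower than with DR (814 against 4093 CPM) but level with Jdp2, at 806 CPM.

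The small leucine-rich proteoglycan Aspn was at 1.60 CPM with Oct4, 230 with DR, 165 in WT, 15.6 with c-Jun, 349 with c-JunDN and 473 with Jdp2. It rested on 3 counts, and the ratio was 144-fold lower (interval 49.0 to 701). Fmod, a proteoglycan that guides collagen fibril assembly, was at 5.32 CPM with Oct4 and 57.2 with DR, but at 0.538 CPM with c-Jun, so Oct4 was not the lowest. Nov, a matricellular protein of the CCN family, was at 4.79 CPM against 246 with DR, and the c-Jun library held 10.2 CPM. Tgfbi, an integrin-binding matrix protein induced by TGF-beta, was at 28.7 CPM with Oct4, 291 with DR and 142 to 809 CPM in the others, with c-Jun the highest.

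**Figure D2:**
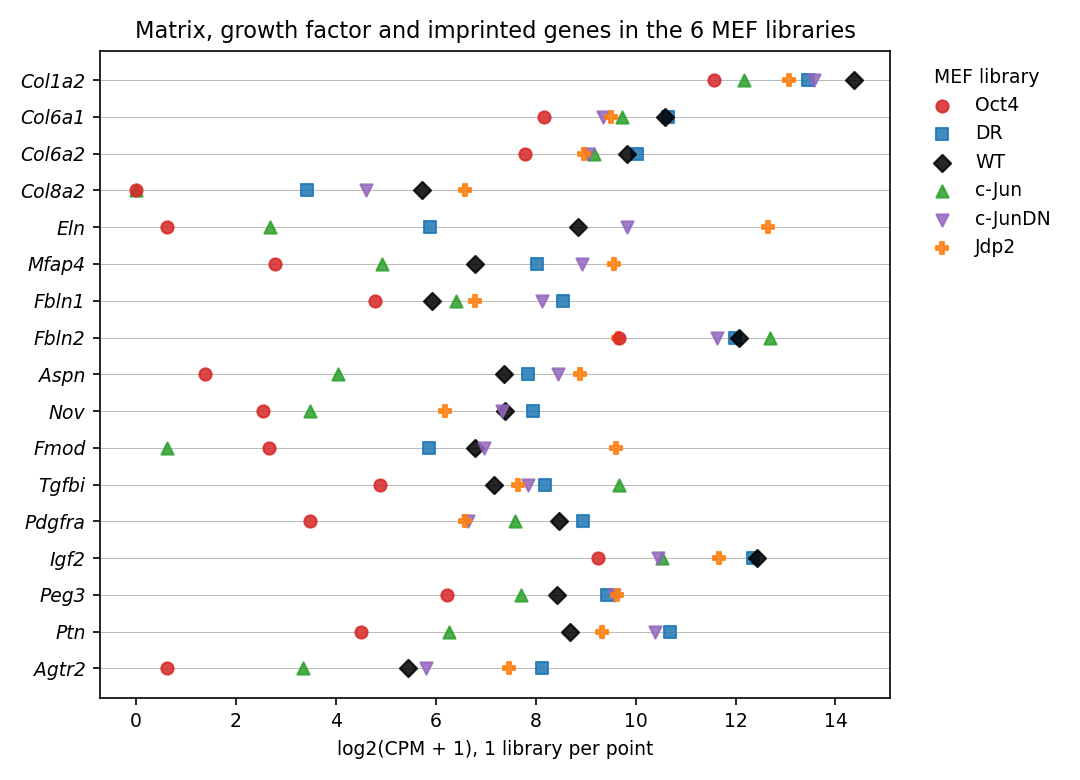
Levels of 17 matrix, growth factor and imprinted genes as log2(CPM + 1) on the x axis, with genes on the y axis and 1 point per MEF library. The Oct4 library (red circle) lies below the other 5 for Col6a1, Eln, Mfap4, Aspn, Pdgfra, Igf2 and Peg3, while c-Jun (green triangle) is lower for Fmod.

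Growth factor receptors and ligands were lower for 15 and higher for 5 of 30 measured genes (median -0.99). Pdgfra, the receptor for platelet-derived growth factor and a defining fibroblast marker, was at 10.1 CPM with Oct4, 496 with DR, 353 in WT, 192 with c-Jun, 98.5 with c-JunDN and 94.7 with Jdp2. It was 49.1-fold lower than with DR (interval 31.3 to 81.9), and the lowest of the other libraries was still far above it. Ptn, the secreted heparin-binding factor pleiotrophin, was at 21.8 CPM with Oct4, 1649 with DR and 76.3 to 1340 CPM in the others. Igfbp4 and Igfbp5, secreted proteins that bind insulin-like growth factors, were 13.5-fold and 11.5-fold lower than with DR. Of these, Igfbp5 was at 87.2 CPM with Oct4, within 2-fold of c-Jun (134 CPM) and Jdp2 (147 CPM), while Igfbp4 was at 16.5 CPM against 105.5 or more in every other MEF library. Agtr2, the type 2 angiotensin receptor, was at 0.532 CPM with Oct4 and 279 with DR, and at 9.14 to 176 CPM in the other 4.

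The fibroblast markers did not move together. Of 16 measured, 8 were lower and 3 were higher. All 16 named markers were thus measured, and their summed level was 27570 CPM with Oct4 against 28660 to 69220 CPM in the other MEF libraries. Those that were higher than with DR were Postn, Vim and Thy1. Postn, the matricellular protein periostin, was at 5537 CPM with Oct4 and 1439 with DR, yet Jdp2 held 7469 CPM. Vim, the intermediate filament vimentin, was 1.39 higher on the log2 scale. Among 25 measured mesenchymal regulators 5 were lower and 2 higher (median -0.60). Snai1, a repressor of epithelial genes, was at 9.57 CPM with Oct4 and 51.5 with DR, below all 5 other libraries. Cdh11, a mesenchymal cadherin, was 3.22-fold lower than with DR but close to c-Jun (377 and 416.5 CPM). Cdh2, N-cadherin, was at 442 CPM with Oct4 and 113 with DR, with WT at 277.

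Of the contractile genes, 7 of 28 were lower and 2 higher. Mylk, the kinase of the myosin light chain, was at 2.13 CPM with Oct4 and 82.4 with DR, and c-Jun was also low at 3.76 CPM. Myh11, smooth muscle myosin, was at 3.72 CPM against 87.6, and the others held 17.2 to 161 CPM. Among 20 YAP and TEAD target genes 3 were higher and 2 lower (median 0.09), shares near those of all measured genes. Ctgf, a matricellular target of this pathway, was 6.99-fold higher than with DR (interval 6.31 to 7.76), but WT MEF held slightly more (1669 CPM against 1530).

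Imprinted genes, which are expressed from only the maternal or the paternal copy and many of which regulate fetal growth, were lower for 11 and higher for 0 of 16 measured, with a median change of -1.56. Igf2, the fetal insulin-like growth factor, was at 607 CPM with Oct4, 5199 with DR, 5542 in WT, 1466 with c-Jun, 1392 with c-JunDN and 3274 with Jdp2. It was 8.57-fold lower than with DR (interval 8.06 to 9.12) and lower than in every other MEF library. Peg3, a zinc finger protein of the paternal copy, was at 73.4 CPM with Oct4 against 687 with DR and 208 to 795 CPM elsewhere. Zim1, from the same imprinted region, was at 1.60 CPM against 45.8, and Dlk1, an inhibitor of adipogenesis, was at 15.4 CPM against 331. Dlk1 had a shorter gene model in the Oct4 library, and its change of -4.34 was -2.80 on the TPM scale. Cdkn1c, a cell cycle inhibitor, was 5.44-fold lower than with DR, while WT MEF held 50.0 CPM against 33.0 with Oct4.

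Signalling ligands and antagonists moved in both directions. In the BMP pathway 7 of 20 genes were higher and 1 lower (median 0.44), and in the TGF-beta pathway 4 of 27 were higher and 7 lower (median -0.48). The share of higher TGF-beta genes is near that of all measured genes. Grem1, a secreted BMP antagonist, was at 1097 CPM with Oct4, 107 with DR, 202 in WT, 7.52 with c-Jun, 94.6 with c-JunDN and 12.8 with Jdp2. Its gene model was longer in the Oct4 library, and the change of 3.34 was 1.89 on the TPM scale. Nog, another BMP antagonist, was at 14.9 CPM against 1.55 with DR and at most 3.21 in the others. Tgfbr3, the TGF-beta co-receptor betaglycan, was 20.5-fold lower than with DR (13.3 against 272 CPM), and Inhbb, an activin subunit, 8.63-fold lower. Inhbb was nevertheless at the level of the c-JunDN library, with 23.4 CPM in each.

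Of 28 Wnt pathway genes 7 were higher and 9 lower. Sfrp1 and Sfrp4 are secreted antagonists of the same family and changed in opposite directions. Sfrp1 was at 22.9 CPM with Oct4 and 356 with DR, near the c-Jun value of 25.3 CPM. Sfrp4 was at 407 CPM with Oct4, 44.8 with DR and 13.4 to 51.2 CPM in the other 4, above all of them. Rnf43, a ubiquitin ligase that removes Wnt receptors, was at 11.7 CPM against 0.515 with DR, a value of 1 count. Lgr5, a receptor for R-spondins, was at 1.06 CPM against 76.8, with 0 in the c-Jun library, and its change of -5.24 was -3.01 on the TPM scale.

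Within ERK feedback genes 6 of 15 were higher and 4 lower. Dusp4 and Dusp14, phosphatases of the family that acts on MAP kinases, were 8.86-fold and 11.2-fold higher than with DR, and above all 5 other MEF libraries. Spry1, an inhibitor of receptor signalling, was 6.24-fold lower, yet c-Jun was lower still (3.76 against 9.57 CPM). In the AP-1 family 3 of 14 genes were higher and 1 lower. Fosl1, the AP-1 subunit Fra-1, was at 29.8 CPM with Oct4 and 2.06 with DR, and at 25.3 CPM with c-Jun. Maff and Mafk, small Maf proteins without a transactivation domain, were 4.56-fold and 3.06-fold higher and were above every other MEF library. Nqo1, a quinone reductase and target of NRF2, was at 155 CPM with Oct4 against 8.24 with DR and 3.23 to 29.4 in the others. On the NRF2 and glutathione list, which holds Nqo1, 2 of 23 genes were higher and 2 lower, shares near those of all measured genes. Slc7a11, the cystine transporter on the same list, was at 2.66 CPM against 19.6 and at 12.8 or more in the others.

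The direction of the interferon genes depended on the reference library. Of 43 interferon response genes 27 were lower with Oct4 than with DR and 1 was higher (median -1.23). Against WT MEF, where 14.6% of 11059 measured genes were higher and 14.8% lower, 27 of 34 were higher and 0 lower (median 1.94). The summed level was 1772 CPM with Oct4, 3969 with DR, 611 in WT, 411 with c-Jun, 3718 with c-JunDN and 8572 with Jdp2. The Oct4 library thus lay between WT and c-Jun on the low side and DR, c-JunDN and Jdp2 on the high side. Ifit1, an antiviral protein that binds foreign RNA, was at 31.4 CPM with Oct4, 274 with DR, 3.58 in WT, 4.84 with c-Jun, 308 with c-JunDN and 503 with Jdp2. Ifit3, of the same family, was at 19.7 CPM with Oct4, 199 with DR, 6.12 in WT and 12.9 with c-Jun. Iigp1, an interferon-inducible GTPase, was at 2.66 CPM with Oct4 and 67.0 with DR. Of 17 genes of MHC class I and antigen processing 5 were lower and 0 higher than with DR, and against WT MEF 10 of 15 were higher and 0 lower (median 1.45).

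Chemokines were lower for 8 of 11 measured genes, with 0 higher and a median of -2.36, and against WT MEF 4 of 8 were lower and 2 higher. Cxcl5, a neutrophil attractant, had 0 counts with Oct4 and 45.3 CPM with DR, which is at least 28.4-fold lower. Cxcl10, which is induced by interferon, had 0 counts against 39.2 CPM with DR, and WT and c-Jun were also at or near 0. Cxcl5 and Cxcl10 were measured against DR through the DR library alone, so they could not be called higher. Among cytokine and inflammation genes 9 of 26 were lower and 3 higher than with DR, and 11 of 26 were lower and 4 higher than in WT MEF. Il1r1, the interleukin-1 receptor, was at 14.4 CPM with Oct4, 178 with DR and 32.6 to 206 CPM in the others. Il1rl1, the receptor for interleukin-33, was at 7.98 CPM against 146 with DR, with Jdp2 lower still at 5.88 CPM.

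**Figure D3:**
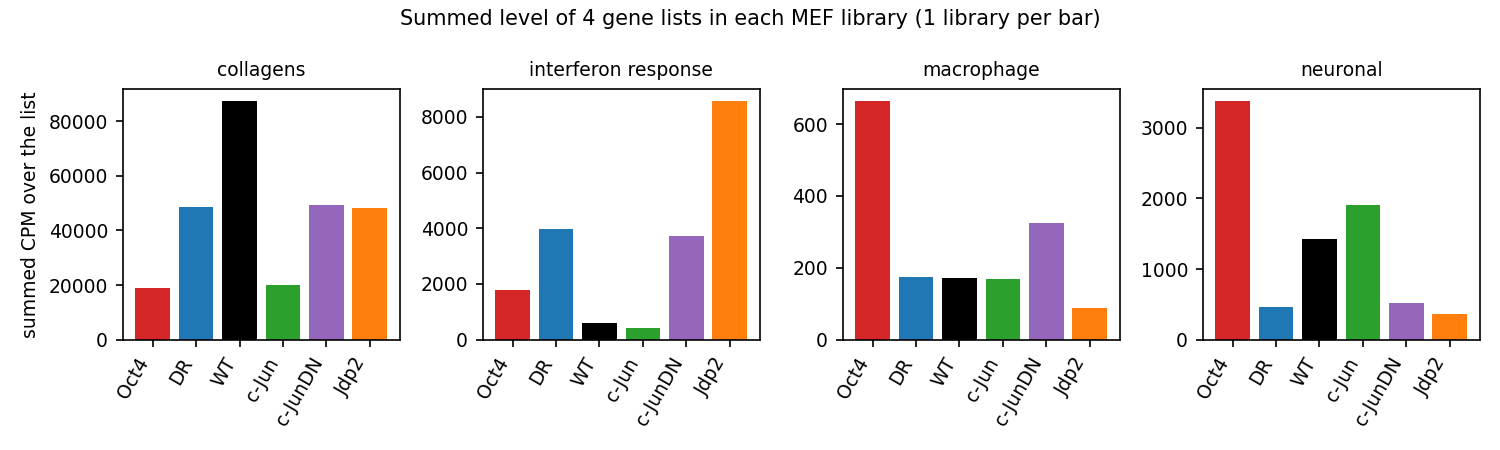
Summed CPM of 4 lists on the y axis, each panel with its own scale from 0, and the MEF library on the x axis, 1 library per bar. Oct4 is lowest for collagens (18980 CPM), between the low and high libraries for interferon response (1772 CPM), and highest for macrophage (664 CPM) and neuronal markers (3379 CPM).

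Neuronal genes gave the highest median of any list with 5 or more measured genes. Of 38 neuronal markers 15 were measured, 11 were higher, 1 was lower, and the median change was 3.81. Members such as Nefm, Vgf and Syt1 were measured against DR through the Oct4 library alone, so they could not be called lower. Nefm, the medium neurofilament, was at 456 CPM with Oct4, 2.58 with DR, 1.37 in WT, 6.45 with c-Jun, 3.90 with c-JunDN and 2.14 with Jdp2. It was 177-fold higher than with DR (interval 75.6 to 547), and the other 5 libraries lay together near the floor. Vgf, a secreted neuropeptide precursor, was at 217 CPM with Oct4, 1.03 with DR, 1.11 in WT, 12.9 with c-Jun, 1.74 with c-JunDN and 1.61 with Jdp2, and its DR value rests on 2 counts. Syt1, the calcium sensor of synaptic vesicles, was at 32.5 CPM against 0 counts with DR and at most 2.14 CPM in the others. Stmn2, a microtubule regulator of growing axons, was at 697 CPM with Oct4 and 17.5 with DR, but the c-Jun library held 554 CPM, within 2-fold. Gap43, a growth cone protein, likewise had 892 CPM with Oct4 and 594 with c-Jun, against 46.9 with DR.

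Other neuronal genes were not detected. The list's genes at 0 counts in the Oct4 library numbered 13, among them the neurogenic factors Neurog2, Neurod1 and Myt1l and the neurofilament Nefh. Tubb3, the neuronal tubulin, was lower with Oct4 at 22.3 CPM against 48.4 with DR and 211 with c-Jun. Of 9 measured markers of glia and neural crest 5 were higher and 1 lower. S100b, a calcium-binding protein of glia, was at 19.1 CPM against 0 counts with DR and at most 3.74 CPM in the others. Mbp, whose main product is a myelin protein, was at 59.0 CPM against 4.12 with DR. Gfap and Olig2 were at 0 counts with Oct4.

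Macrophage markers were higher for 23 of 26 measured genes and lower for 1, with a median change of 2.37, and 14 were above all 5 other MEF libraries. Members such as Ctss and Ms4a7 were measured against DR through the Oct4 library alone, so they could not be called lower. Their summed level was 664 CPM with Oct4, 173 with DR, 172 in WT, 168 with c-Jun, 325 with c-JunDN and 87.7 with Jdp2. Mpeg1, a pore-forming protein of macrophages, was at 83.0 CPM with Oct4, 9.79 with DR, 16.1 in WT, 3.76 with c-Jun, 17.3 with c-JunDN and 7.49 with Jdp2. Ctss, the lysosomal protease cathepsin S, was at 29.3 CPM against 2.06 with DR and 10.4 with c-JunDN. Ms4a7, a macrophage membrane protein, was at 10.1 CPM against 0 counts with DR, at least 6.54-fold higher. Lyz1, a lysozyme, was the lower one, at 0 counts against 11.3 CPM with DR. Csf1r, the receptor that macrophages need to survive, was at 36.2 CPM against 4.64 with DR but at 78.5 CPM with c-Jun. Of 15 markers of other leukocytes none reached 5 CPM, and 14 were at 0 counts with Oct4. The part of macrophage RNA in the changes of other genes was not tested.

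Lysosome genes, which macrophages also express, were higher for 6 and lower for 0 of 29 measured (median 0.33). Gpnmb, a glycoprotein of lysosomes and macrophages, was at 464 CPM with Oct4, 151 with DR and 24.7 to 109 in the others. Neu1, a lysosomal sialidase, was 3.15-fold higher than with DR.

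Of the other cell type lists few genes were measured. Among endothelial markers 3 of 6 were higher and 2 lower, with opposite members such as Vwf, the von Willebrand factor (30.9 against 0.515 CPM, a DR value of 1 count, with a change of 4.32 on the TPM scale), and Cd34, a surface sialomucin (1.60 against 47.9 CPM). Pecam1 and Cdh5, which define endothelium, were at 0 counts with Oct4. Of 4 epithelial markers 1 was higher and 2 lower, and no erythroid or germline marker was measured.

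Of 37 cell cycle and replication genes 7 were higher than with DR and 0 lower, with a median of 0.64. Against WT MEF 2 were higher and 1 lower, with a median of -0.02. Rrm2, a subunit of ribonucleotide reductase, was at 186 CPM with Oct4, 45.8 with DR, 99.5 in WT, 81.2 with c-Jun, 49.0 with c-JunDN and 56.7 with Jdp2. Foxm1, a transcription factor of the G2 and M phases, was at 104 CPM against 35.0 with DR and 67.0 in WT. Both were highest with Oct4 among the 6 libraries but within 2-fold of the next. Ccnd1, cyclin D1, was 2.41-fold higher than with DR and near WT (735 and 664 CPM). Of 22 p53 target genes 0 were higher and 1 was lower, Ddit4, an inhibitor of mTOR signalling, at 27.7 against 80.4 CPM. WT MEF was near the Oct4 level for Ddit4 at 31.6 CPM, with 42.8 in Jdp2, 89.4 in c-JunDN and 152 in c-Jun.

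Of 28 glycolysis and hypoxia genes 11 were lower and 2 higher (median -0.60). Slc16a3, a lactate exporter, was at 5.32 CPM against 62.3 with DR and close to Jdp2, at 6.42 CPM. Pfkl, a phosphofructokinase, was 4.18-fold lower than with DR, at 42.0 CPM. Jdp2 was close to it at 49.8 CPM, and the others held 94.6 CPM or more. Of 32 sterol and fatty acid genes 4 were lower, a share near that of all measured genes, and 0 higher (median -0.57). Of 30 genes of the ATF4 and unfolded protein response 6 were lower and 0 higher (median -0.49). Trib3, a pseudokinase induced by ATF4, was 12.7-fold lower than with DR (5.85 against 74.2 CPM), with Jdp2 at 9.09 CPM. Crabp1, a cytoplasmic carrier of retinoic acid, was at 23.4 CPM with Oct4 and 741 with DR, with 13.9 CPM in the Jdp2 library. On the retinoid list 5 of 12 genes were lower and 1 higher. Chd7, a chromatin remodeller, was the only higher gene of 32 chromatin regulators, at 33.0 CPM against 2.58 with DR and 16.1 with c-Jun.

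Outside the lists, the genes with the largest increase over DR that were also above every other MEF library were of mixed function. Cbln2, a secreted organiser of synapses, was at 263 CPM with Oct4, 0 counts with DR, 0.261 CPM in WT, 50.0 with c-Jun, 0.868 with c-JunDN and 3.21 with Jdp2. Npnt, the matrix protein nephronectin, was at 1801 CPM with Oct4, 13.9 with DR, 29.8 in WT, 23.7 with c-Jun, 59.0 with c-JunDN and 17.7 with Jdp2, which made it 129.5-fold higher than with DR (interval 88.8 to 197). Anxa10, an annexin, was at 85.1 CPM with Oct4 and at 0 counts in all 5 other MEF libraries, at least 55.1-fold higher than with DR. The next highest library was c-Jun for Cbln2 and c-JunDN for Npnt.

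Arhgap36, a regulator of protein kinase A and Hedgehog signalling, was at 134 CPM with Oct4 and at most 1.89 CPM elsewhere. Sele, the adhesion molecule E-selectin, was at 76.1 CPM against at most 1.07. Lrrn1, a leucine-rich membrane protein, was at 257 CPM against at most 6.58. The protocadherin Pcdh10 (254 CPM against 3.09 with DR), the atypical cadherin Fat3 (205 against 3.61) and Prom1, the membrane protein CD133 (72.3 against 0.515), were also on this list, each with 16.7 CPM or more in at least 1 other MEF library. Sprr2a1 and Sprr2a2 share reads as near-identical copies, as do the constant exons of the clustered protocadherin Pcdhgc4, and their values are uncertain.

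**Figure D4:**
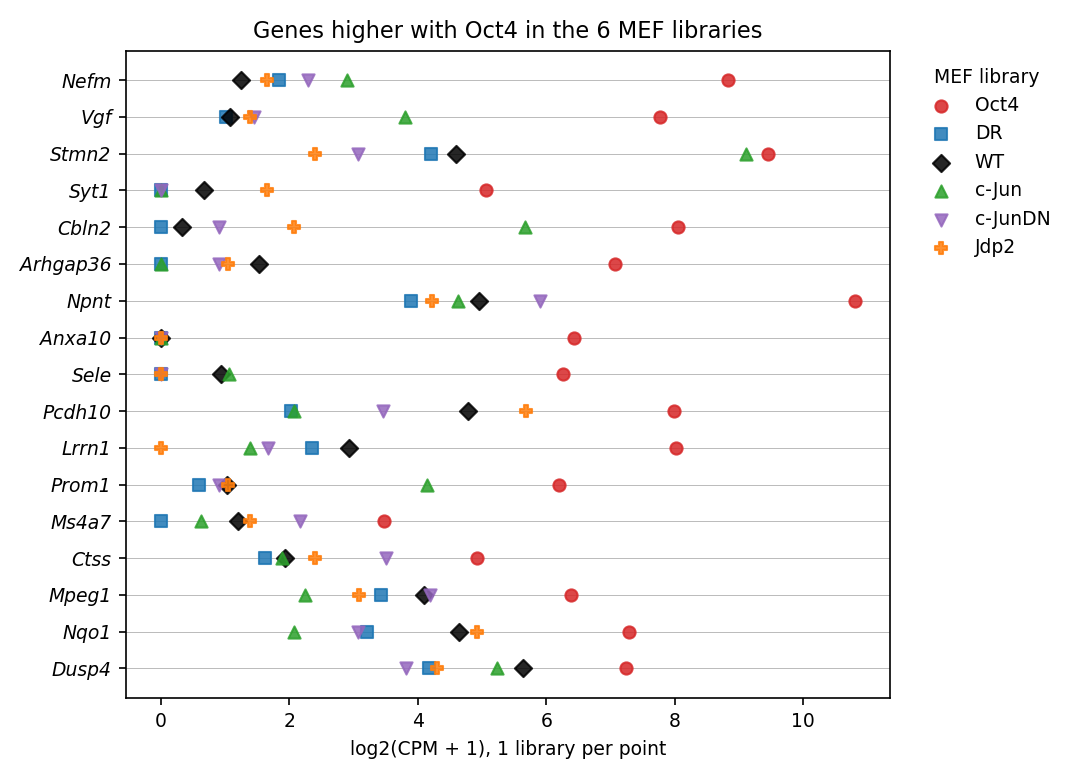
Levels of 17 genes that were higher with Oct4, as log2(CPM + 1) on the x axis, with genes on the y axis and 1 point per MEF library. Oct4 (red circle) is the highest library for each of the 17, with c-Jun (green triangle) next for Stmn2 at 554 CPM and Cbln2 at 50.0 CPM.

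At the lower end stood Agtr2, Aspn, Ptn, Pdgfra, Eln and Mfap4, given above, with Gas1, a co-receptor of Hedgehog signalling, at 9.57 CPM against 328 with DR and 150 or more in all others. Islr, a marker of stromal progenitors, was at 1.06 CPM against 60.8 with DR and 8.60 to 92.5 CPM in the others. Adamts15, a protease of proteoglycans, had 0 counts against 44.3 CPM with DR and 2.14 to 22.6 CPM in the others. The lowest of these, Jdp2, was near the floor. Taf9, a subunit of the general transcription factor TFIID, was listed at 0 with Oct4 and between 85.9 and 100 CPM in the other 5 MEF libraries. Zc3h3 and Lsm7, which act in RNA processing, were also listed at 0 with Oct4, against 24.7 and 23.7 CPM with DR. Taf9 was the only gene at 0 with at least 20 CPM in all 5 others, and since the Oct4 library alone uses Ensembl gene models, a gene-model difference and a change in these cells cannot be told apart for these 3.

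The letters of the octamer, ATGCAAAT, were looked for on both strands in promoters of 300 bases, 250 before and 50 after each RefSeq start site (GRCm38.p6). They were in 1.74% of all 32851 promoters of the table, in 1.24% of the 11657 promoters of measured genes, in 1.45% of 1313 promoters of genes higher with Oct4 and in 2.1% (24) of 1145 promoters of genes lower with Oct4. As a gene can have several start sites, the same octamer can be counted in several promoters, as for Tnc. No difference between these shares was tested. Of the 44 genes ranked by their change, 29 had a promoter in the table and 0 held the octamer. Of 337 called list genes, 79 higher and 153 lower ones had a promoter. Among these, 10 held the octamer upstream of a start site, all of them lower. The same count per gene, upstream only, was not made over all measured genes, so the 10 have no background share beside them. Promoters of a single chromosome were left out of that search but not of the 79 and 153, so a match there would be missed. The windows of 4 of the 10 are shown as examples from the matrix, inflammation and retinoid groups above. Il1rn, also of the inflammation group, is among those not shown. The 4 were chosen after their values were seen, and capitals mark the octamer or its reverse complement.
Col3a1, a fibrillar collagen, chr1:45311365-45311422, plus strand: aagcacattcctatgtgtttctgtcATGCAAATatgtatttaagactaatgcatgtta
Tnc, the matricellular protein tenascin C, chr4:64047099-64047156, minus strand: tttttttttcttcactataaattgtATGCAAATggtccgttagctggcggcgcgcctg
Il1rl1, chr1:40429509-40429566, plus strand: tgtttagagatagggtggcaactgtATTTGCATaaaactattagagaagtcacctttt
Aldh1a2, a retinaldehyde dehydrogenase, chr9:71215680-71215737, plus strand: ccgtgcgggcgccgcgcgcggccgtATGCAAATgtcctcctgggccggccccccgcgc
Col3a1 was at 2743 CPM with Oct4 and 7323 with DR, Tnc at 1162 and 3342, Il1rl1 at 7.98 and 146, and Aldh1a2 at 1.60 and 11.3. A match of letters is a description and does not show that Oct4 bound there.

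The change with Oct4 in MEF and that with Oct4 in KSM share no library. Of 879 genes higher in MEF and measured in KSM, 101 were higher in KSM too and 93 were lower there. Of 807 genes lower in MEF, 146 were lower in KSM too and 65 were higher. Among all 10639 genes measured in KSM, 4.77% were higher and 6.83% lower with Oct4 than with DR there. The shared genes are 11.5% of those higher in MEF and 27.8% of the 363 higher in KSM, and 18.1% of those lower in MEF and 26.6% of the 549 lower in KSM. Over all 10021 genes measured in both, 1.01% were higher and 1.46% lower in both, and across genes, which are not independent replicates, Pearson's r of the changes was 0.11.

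Besides Pou5f1, the genes with the largest increase in both settings included Odz1, a teneurin of cell adhesion, at 48.9 CPM against 0.515 in MEF and 22.7 CPM against 0 counts in KSM. Arhgap36 was at 15.1 CPM in KSM with Oct4 and at 0 counts with DR. Sfrp4 was at 9.06 CPM against 0 counts in KSM. Nat8l, the enzyme that makes N-acetylaspartate, was 22.7-fold higher in MEF (interval 7.44 to 113) and 15.8-fold in KSM (interval 8.68 to 32.1). Scg5, a chaperone of prohormone convertase, Fras1, a basement membrane protein, and Dcaf12l1, a substrate receptor of ubiquitin ligases, completed this list. Dcaf12l1 was at 77.1 CPM in MEF with Oct4 but also at 49.8 CPM with Jdp2.

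Lower in both were Tgfbi, Igfbp4, Igfbp5 and Igfbp2, with Smoc1, a calcium-binding matrix protein, Plagl1, an imprinted zinc finger factor, Rgs16, a regulator of G-protein signalling, and Sertad4. Smoc1 was at 1.06 CPM against 26.3 in MEF and at 19.6 CPM against 178 in KSM. Tgfbi was 10.1-fold lower in MEF and 7.66-fold lower in KSM (interval 4.85 to 12.7). Igfbp4 was 5.88-fold lower in KSM and Plagl1 4.96-fold lower. In the MEF c-Jun library Smoc1 was within 2-fold of the Oct4 library, at 1.61 CPM, and Plagl1 was lower, at 46.2 CPM against 64.4 with Oct4.

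**Figure D5:**
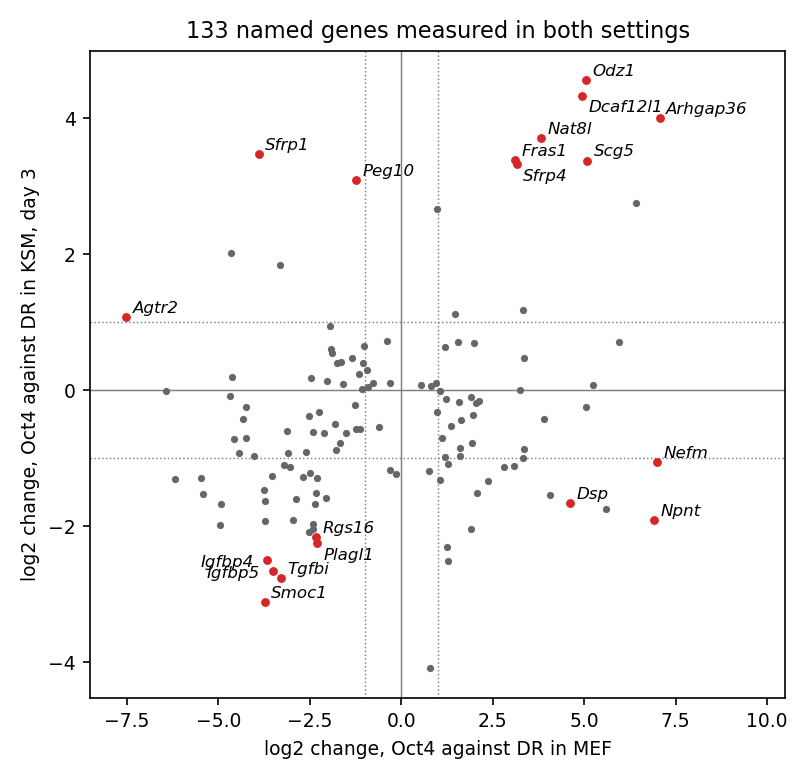
Log2 change of Oct4 against DR in MEF on the x axis and in KSM on day 3 on the y axis, for 133 named genes measured in both settings (points), with Pou5f1 left out. Some genes such as Odz1 and Smoc1 changed the same way in both settings, while Npnt, Nefm, Sfrp1 and Peg10 changed in opposite directions.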

How the data were processed

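Per the submitters' processing notes, RNA reads were quantified with RSEM 1.1.21 on mm9, and the aligner is not given in the sources used here. The authors deposited RSEM expected counts per gene, rounded here to whole numbers, together with a fraction of transcripts for 12 libraries and TPM for the MEF Oct4 library, per the file headers and values. The fraction and TPM values served only as an alternative scale and for implied gene lengths. Ensembl genes of the Oct4 library were joined to the RefSeq-based names through accessions, symbols and synonyms: of 27247 Ensembl genes with a symbol and 20325 RefSeq-based names, 19760 were shared, holding 97.01% of the 1896522 expected counts of the Oct4 library and 94.12% of the DR counts. Ribosomal protein genes were not analysed here. Libraries were scaled with TMM (edgeR 4.0.16, R 4.3.3) over 13 RNA libraries, and comparisons ran in Python 3.11.15 with scipy 1.17.1. Folds are ratios of CPM without a pseudocount, with an exact conditional binomial interval, and against 0 counts the floor of 3 counts in that library was used. Each group is 1 library, so there are no replicates and no p-values. The code was tested on simulated data.

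Named genes were the introduced factors, up to 4 measured members per list with the largest change, defining markers at 0, the 15 highest and 15 lowest genes also 2-fold beyond every other MEF library, and the 8 highest and 8 lowest called the same way in MEF and KSM. Unnamed models, pseudogenes, histone, olfactory, immunoglobulin and small RNA genes, genes under 20 CPM in both libraries and genes over 1.5-fold apart in implied length were left out of the ranked sets. Members and the 50 lists were chosen with earlier results of these data known. Genes named outside the rule were chosen after their values were seen. Alternatives were other scalings, pseudocounts, filters, ways of joining names and WT MEF as the control. A few list members are counted but not reported here by name.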

Additional observations from a re-analysis of the deposited data

Results flagged for a closer look

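Among the named genes, of which 133 besides Pou5f1 were measured in both settings, 19 were at least 2-fold apart from DR in opposite directions in MEF and in KSM. The difference was not tested, since each value compares 1 library with 1 library. Most named genes were picked for large changes. Over all 10021 genes measured in both, 93 were higher in MEF and lower in KSM, and 65 the reverse. Higher in MEF and lower in KSM were 14 of the 19, given with the log2 change in MEF and then in KSM. Neurofilament, muscle receptor, adhesion and matrix genes were Nefm (7.0, -1.06), Chrna1 (2.06, -1.51), Dsp (4.62, -1.65), Npnt (6.92, -1.91), Prom1 (5.60, -1.74) and Ctgf (2.80, -1.12). Genes of signalling, growth and metabolism were Bmp2 (2.38, -1.33), Fstl3 (1.91, -2.04), Dusp4 (3.07, -1.12), Ccnd1 (1.27, -1.09), Sfn (1.27, -2.51), Nqo1 (4.08, -1.53), Pparg (1.24, -2.30) and Hoxb5 (1.05, -1.32). For Sfn and Pparg the counting interval of the MEF ratio included no change, and the MEF DR values of Bmp2 and Chrna1 rest on 1 count each. The other 5 were lower in MEF and higher in KSM: Agtr2 (-7.51, 1.08), Il1rn (-4.67, or -2.995 on the TPM scale since its gene models differ in length, and 2.03), Peg10 (-1.24, 3.09), Sfrp1 (-3.90, 3.47) and Slc16a3 (-3.33, 1.85). Both settings use OG2 fibroblasts at passage 2, but only the MEF Oct4 library was quantified on Ensembl genes, and its part in these differences was not tested.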

How the results depend on the processing

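The 1300 higher and 1150 lower genes stayed within 1.5 times of these counts under total count, median-of-ratios and 2-library TMM scaling, on the TPM scale, with pseudocounts of 0.5 and 5, at a minimum of 1 CPM, without a filter, with names joined through symbols alone, with unrounded counts and with WT MEF as the control. With at least 20 CPM there were 830 higher and 729 lower genes, of fewer genes measured, and over genes of like length in both annotations 817 were higher. The genes higher with Oct4 than DR in KSM numbered 241, and the genes lower with Oct4 than DR in KSM 405, with at least 20 CPM. On the TPM scale 967 of the genes called higher and 893 of those called lower kept their call. With WT MEF as the control 829 of the higher and 644 of the lower genes kept theirs. Sign was checked for the named genes only, and 8 called ones among them changed sign. Ifit3 (1.54), Oasl2 (2.41), Ifit1 (2.82), Psmb8 (1.53) and H2-T23 (0.85) became positive. Ctgf (-0.13), Dusp5 (-0.79, against DR 0.10 on the TPM scale, its gene models differing over 2-fold in length) and E2f8 (-0.73) became negative. The cause was not tested. Under the other alternatives no called gene among the named ones that was measured changed sign. Tet1, too low to be measured on the TPM scale, went from -1.02 to 0.08 there. On the TPM scale the change of 179 named genes stayed within the counting interval, widened to the main value where needed, and 22 moved beyond it. Staying within it does not mean that a call was kept. Rdh10 (1.61 to 0.91) and Hoxb5 (1.05 to 0.92) stayed within it but no longer reached 2-fold. With WT MEF as the control 85 named genes stayed within that interval and 97 moved beyond it, besides the 8 that changed sign. With a pseudocount of 5, 60 named genes moved beyond it. The counts of higher and lower genes per list were less steady than the totals. With WT MEF as the control 51 list counts stayed within 1.5 times and 49 did not, and on the TPM scale 78 stayed and 22 did not. No paired analysis was possible because each group is 1 library. Limits are the single library a side, the annotation that only the Oct4 library uses, and a depth at which 3 counts are 1.60 CPM.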
